A study of Mus musculus with 6 samples.

Results

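The genes of glycolysis and of the transcriptional response to low oxygen were examined in mouse KSL cells with and without Trim28 (TIF1b, KAP1), a co-repressor that zinc finger proteins recruit to DNA. The set was chosen by gene symbol and holds 37 of the 20284 genes that the array's probes could be matched to. It has 17 glycolytic enzymes (Hk1, Hk2, Hk3, Gpi1, Pfkl, Pfkm, Pfkp, Aldoa, Aldoc, Tpi1, Gapdh, Pgk1, Pgam1, Eno1, Eno2, Pkm and Ldha), 7 transporters and regulators of the pathway (Slc2a1, Slc2a3, Slc16a3, Pdk1, Pdk3, Pfkfb3 and Pfkfb4) and 13 targets of the hypoxia response (Bnip3, Bnip3l, Egln1, Egln3, Vegfa, Car9, Ankrd37, Ddit4, P4ha1, P4ha2, Kdm3a, Ndrg1 and Mxi1). KSL cells are c-Kit positive, Sca-1 positive and negative for lineage markers, and they include the hematopoietic stem cells. They were sorted from C57BL6 fetal liver or adult bone marrow, and RNA of each sample was hybridised to its own 1-colour array, 6 arrays in all. Fetal liver gave 1 wild-type (WT) array, Tie2-Cre with Tif1bw/w, and 1 knockout (KO) array, Tie2-Cre with Tif1bf/f. Adult bone marrow gave 2 WT arrays, CreERT with the w/w allele, and 2 KO arrays, CreERT with the f/f allele; the labels of replicate 2 spell the gene Tif2b. Every group therefore carried a Cre. Tie2-Cre acts in endothelial as well as blood cells, and CreERT is a Cre that tamoxifen switches on; the labels give neither the promoter of CreERT nor the time after induction. Nothing in the labels says that the arrays came from separate animals, so the p-values measure the spread between these arrays, which may be technical.

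Glycolysis splits glucose into pyruvate in the cytosol, and lactate dehydrogenase turns pyruvate into lactate when it is not oxidised in mitochondria. When oxygen is low, the HIF-1 and HIF-2 factors are no longer hydroxylated by the EGLN enzymes and degraded through VHL. They then bind DNA with ARNT and raise glucose carriers, most glycolytic enzymes and PDK1, which switches off pyruvate dehydrogenase. They also raise genes such as BNIP3, which promotes removal of mitochondria. Hematopoietic stem cells of adult bone marrow are known for their reliance on glycolysis and for a low-oxygen niche.

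The core of the HIF binding element is ACGTG. The sequences shown first lie upstream of genes that hold it and were at least 2-fold higher in fetal liver KO, and of Ldha and Pgk1. Hk3, the member furthest apart in fetal liver, was lower in KO and also holds the motif, 156 bases upstream, but is not printed. In the 250 bases before the RefSeq start (GRCm38.p6, any start of a gene, both strands), ACGTG was found for 22 of the 34 members with a sequence (64.7%), against 18.5% of 27025 genes and 25.5% of the 8980 genes with a sequence that were above background on all 6 arrays. It was found for 10 of 11 hypoxia targets, 4 of 6 transporters and regulators and 8 of 17 enzymes. Several members are textbook HIF targets, so this share describes the choice of genes. The motif overlaps CACGTG, the E-box that MYC and other factors bind. That E-box was present for 4 of 34 members (11.8%), 6.86% of all genes and 10.1% of the genes above background. Members also have CpG-rich promoters, with a median of 19 CpG pairs in the window against 6 over all genes and 17 over the genes above background. Each line gives a stretch of the gene's own strand, with ACGTG, its reverse complement CACGT or the overlap of both in capitals. The first 8 genes were at least 2-fold higher on the fetal liver KO array, and Ldha and Pgk1 are enzymes that were not. A match is a run of letters and was not tested as a binding site.
Bnip3 (chr7:138909507-138909656, minus strand): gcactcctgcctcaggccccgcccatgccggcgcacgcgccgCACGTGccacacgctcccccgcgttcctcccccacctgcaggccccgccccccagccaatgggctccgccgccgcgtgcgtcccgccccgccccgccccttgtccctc
Ankrd37 (chr8:45999851-46000100, minus strand): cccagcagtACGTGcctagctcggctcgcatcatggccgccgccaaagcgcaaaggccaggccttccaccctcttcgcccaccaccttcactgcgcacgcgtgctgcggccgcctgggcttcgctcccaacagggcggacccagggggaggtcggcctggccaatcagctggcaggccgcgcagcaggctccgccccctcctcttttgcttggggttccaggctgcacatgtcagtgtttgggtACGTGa
Egln3 (chr12:54204024-54204124, minus strand): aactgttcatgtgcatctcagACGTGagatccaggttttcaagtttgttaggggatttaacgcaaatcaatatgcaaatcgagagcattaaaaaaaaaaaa
Ddit4 (chr10:59951871-59951970, minus strand): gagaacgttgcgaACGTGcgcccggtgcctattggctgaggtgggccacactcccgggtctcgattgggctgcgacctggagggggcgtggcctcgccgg
P4ha1 (chr10:59323196-59323295, plus strand): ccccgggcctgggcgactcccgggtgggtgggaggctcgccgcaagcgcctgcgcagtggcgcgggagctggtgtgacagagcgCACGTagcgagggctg
P4ha2 (chr11:54100804-54100923, plus strand): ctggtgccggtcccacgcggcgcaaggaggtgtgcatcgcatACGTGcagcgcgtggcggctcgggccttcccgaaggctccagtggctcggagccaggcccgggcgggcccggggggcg
Slc16a3 (chr11:120948967-120949066, plus strand): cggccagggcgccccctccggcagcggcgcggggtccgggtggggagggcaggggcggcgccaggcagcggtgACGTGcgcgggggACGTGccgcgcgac
Slc2a1 (chr4:119108645-119108744, plus strand): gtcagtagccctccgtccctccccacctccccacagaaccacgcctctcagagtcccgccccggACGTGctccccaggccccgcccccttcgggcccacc
Ldha (chr7:46845644-46845803, plus strand): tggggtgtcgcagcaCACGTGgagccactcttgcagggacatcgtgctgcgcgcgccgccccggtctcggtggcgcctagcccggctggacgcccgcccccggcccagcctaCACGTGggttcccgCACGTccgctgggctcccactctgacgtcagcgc
Pgk1 (chrX:106186930-106186999, plus strand): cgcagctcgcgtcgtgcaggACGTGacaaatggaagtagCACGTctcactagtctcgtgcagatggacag

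Bnip3 has the element as an E-box, Slc16a3 holds 2 copies close to its start, and Ankrd37 holds 1 copy next to its start and 1 at the far end of the window. Of the 10 members at least 2-fold higher in fetal liver KO, 9 had a sequence and 8 held the motif, Aldoc being the exception. Of the other 25 members with a sequence, 14 held it (56.0%). Most of the other members are enzymes, and 8 of all 17 enzymes held it. Of the hypoxia targets 10 of 11 held it, among them Egln1, Vegfa, Car9 and Mxi1, which were not at least 2-fold higher. Whether the motif goes with the fetal liver difference was not tested. The printed Ldha stretch holds 5 matches, counting both strands of each E-box.

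Levels are log2 signals relative to the 75th percentile of the same array, so they compare 1 probe across arrays and not genes with each other. The 75th percentile itself lay between 211 and 743 intensity units, and 24383 to 31419 probes per array were above background. Trim28 was lower on each KO array than on its WT partner, at 5.97 and 1.68 on the fetal liver WT and KO arrays, 2.45 and 1.28 in bone marrow pair 1, and 5.55 and 0.75 in pair 2; where its probe lies relative to the deleted part was not known. Bone marrow WT replicate 1 stood apart in its scanner file, with Kit at 1.30 against 4.17 to 4.50 on the other 5 arrays and Trim28 below the other WT arrays, and a free-text label of that sample names Hp1aKD cells. The authors' value table gives other values for this sample (Kit 4.16, Trim28 5.18), which matched the scanner file at only 1.41% of probes; for the other 5 arrays the table and the scanner files agree. The free-text label of bone marrow KO replicate 1 names Hp1gKD cells. Bone marrow results are therefore given from both sources. Each of 3 slides held 1 WT and 1 KO array of 1 tissue and replicate number, so that the WT and KO arrays of a pair shared a slide, while tissue, Cre line and slide cannot be told apart. In sorted bulk cells, fewer cells of a type and less RNA per cell cannot be told apart either.

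In fetal liver, glucose carriers, the lactate exporter and hypoxia targets were brighter in KO than in WT, and the glycolytic enzymes were brighter by a smaller step. Of 35 members above background on at least 1 of the 2 arrays, 33 were higher in KO, against 42.2% of 12701 genes measured in this pair. A difference of at least 2-fold upward was seen for 10 members (28.6%), where the share over all genes was 5.33%. Only Hk3 was at least 2-fold lower, where the share over all genes was 4.42%. The median difference was 1.01 (log2) for 12 hypoxia targets, 0.99 for 7 transporters and regulators and 0.52 for 16 enzymes, beside -0.07 over all genes. With 1 array per genotype the pair has no replicates and was not tested by itself. Eno2 and Mxi1 were not above background on either fetal liver array, and Mxi1 was not above background on any array.

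**Figure D1:**
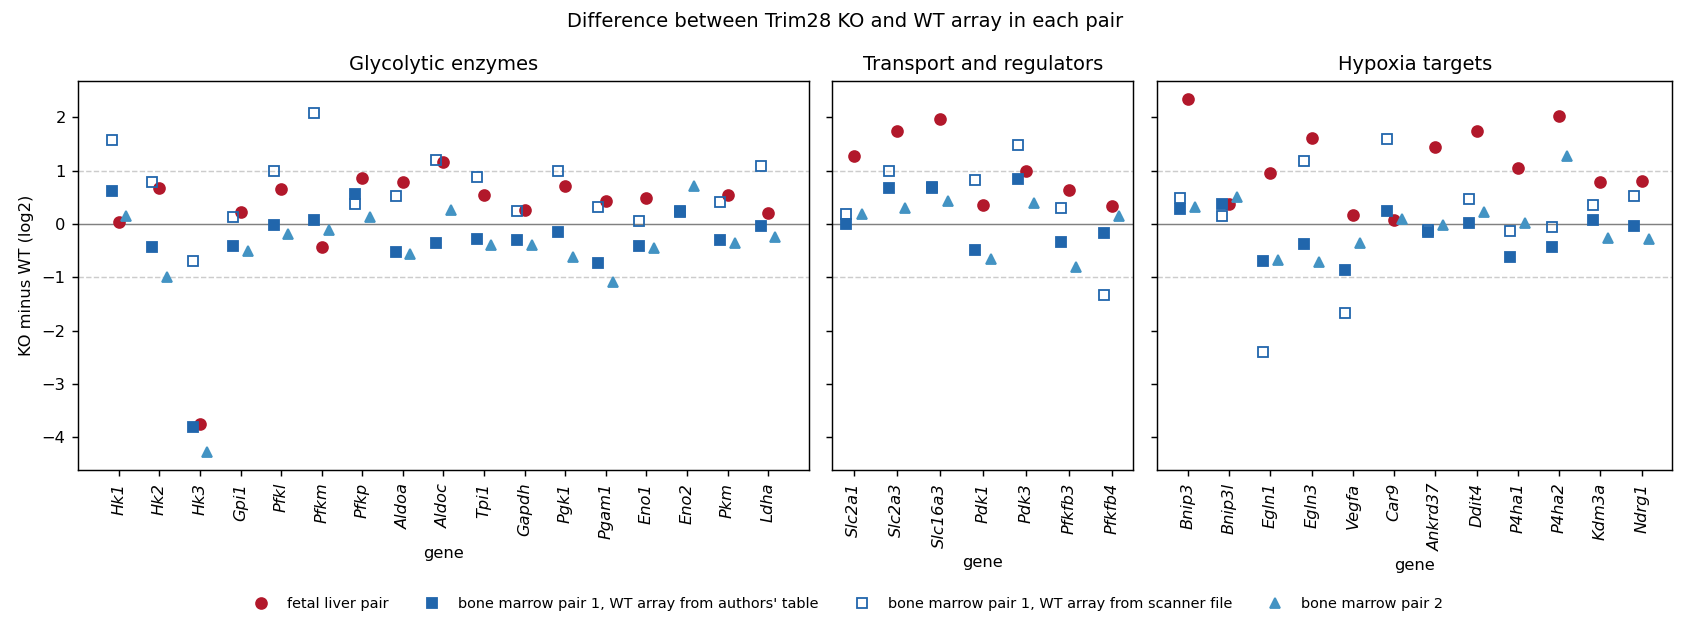
KO minus WT (log2, vertical axis) for each member (horizontal axis) in the fetal liver pair (circles), bone marrow pair 1 with the WT array from the authors' table (filled squares) or the scanner file (open squares), and bone marrow pair 2 (triangles); dashed lines mark 2-fold. The fetal liver circles lie above 0 for 33 of 35 members, and Hk3 lies near -4 in the 3 pairs unless the scanner file of WT replicate 1 is used.

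Among the transporters, Slc16a3 (MCT4), which exports lactate, had a level of 4.73 on the fetal liver WT array and 6.69 on the KO array, 3.90-fold apart, and its second probe differed by 2.05 on the log2 scale. Slc2a3 (GLUT3), a high-affinity glucose carrier, stood at 2.75 and 4.49, 3.35-fold apart. Slc2a1 (GLUT1), the main glucose carrier of blood cells, stood at 3.61 and 4.90, 2.44-fold apart. All 3 of these carriers were thus brighter on the KO array, and the fetal liver KO array was the brightest of the 6 for each of them. The regulators differed less. Pdk3, a kinase that switches off pyruvate dehydrogenase, was 1.99-fold higher, and Pdk1, Pfkfb3 and Pfkfb4, the last pair being enzymes that set the allosteric activator of phosphofructokinase, were 0.34 to 0.63 higher on the log2 scale.

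Among the hypoxia targets, Bnip3 had the largest upward difference of any member, with a level of 3.94 on the fetal liver WT array and 6.29 on the KO array, 5.10-fold apart. Its 3 probes gave log2 differences from 2.09 to 2.35. Ddit4 (REDD1), an inhibitor of mTORC1, stood at 3.23 and 4.97, 3.33-fold apart. Egln3, an oxygen-sensing prolyl hydroxylase that HIF induces, stood at 1.88 and 3.49, and its second probe gave the same size of difference (1.61 and 1.64 on the log2 scale). These genes are known to be induced by low oxygen in many cell types. Ankrd37, a small ankyrin-repeat protein, stood at 1.27 and 2.73, 2.74-fold apart. P4ha1, a subunit of collagen prolyl hydroxylase, stood at -0.51 and 0.55. P4ha2, another form of that subunit, was not well above background on the WT array and at -1.27 on the KO array, at least 4.0-fold apart. Vegfa, the vascular growth factor, and Car9, the carbonic anhydrase often used as a hypoxia marker, differed by 0.17 and 0.07, although a second Vegfa probe, above background on all 6 arrays, was 0.62 higher. The remaining targets, Bnip3l, Kdm3a, Ndrg1 and Egln1, were 0.37 to 0.96 higher, and Egln1 was not well above background on the WT array (at least 1.76-fold).

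Among the enzymes, 14 of 16 were higher on the fetal liver KO array, and Aldoc, a brain-type aldolase, was the single enzyme past 2-fold upward, at 1.26 and 2.43. Pfkp, Aldoa, Pgk1, Hk2 and Pfkl were 0.66 to 0.86 higher on the log2 scale. Tpi1, Pkm, Eno1, Pgam1, Gapdh, Gpi1, Ldha and Hk1 were 0.04 to 0.55 higher. Ldha, the lactate-forming subunit, stood at 9.77 and 9.98. Pfkm was 0.42 lower. Hk3, the hexokinase isoform of myeloid cells, stood at 1.86 on the WT array and -1.89 on the KO array, 13.4-fold apart and opposite in direction to Hk1 and Hk2.

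**Figure D2:**
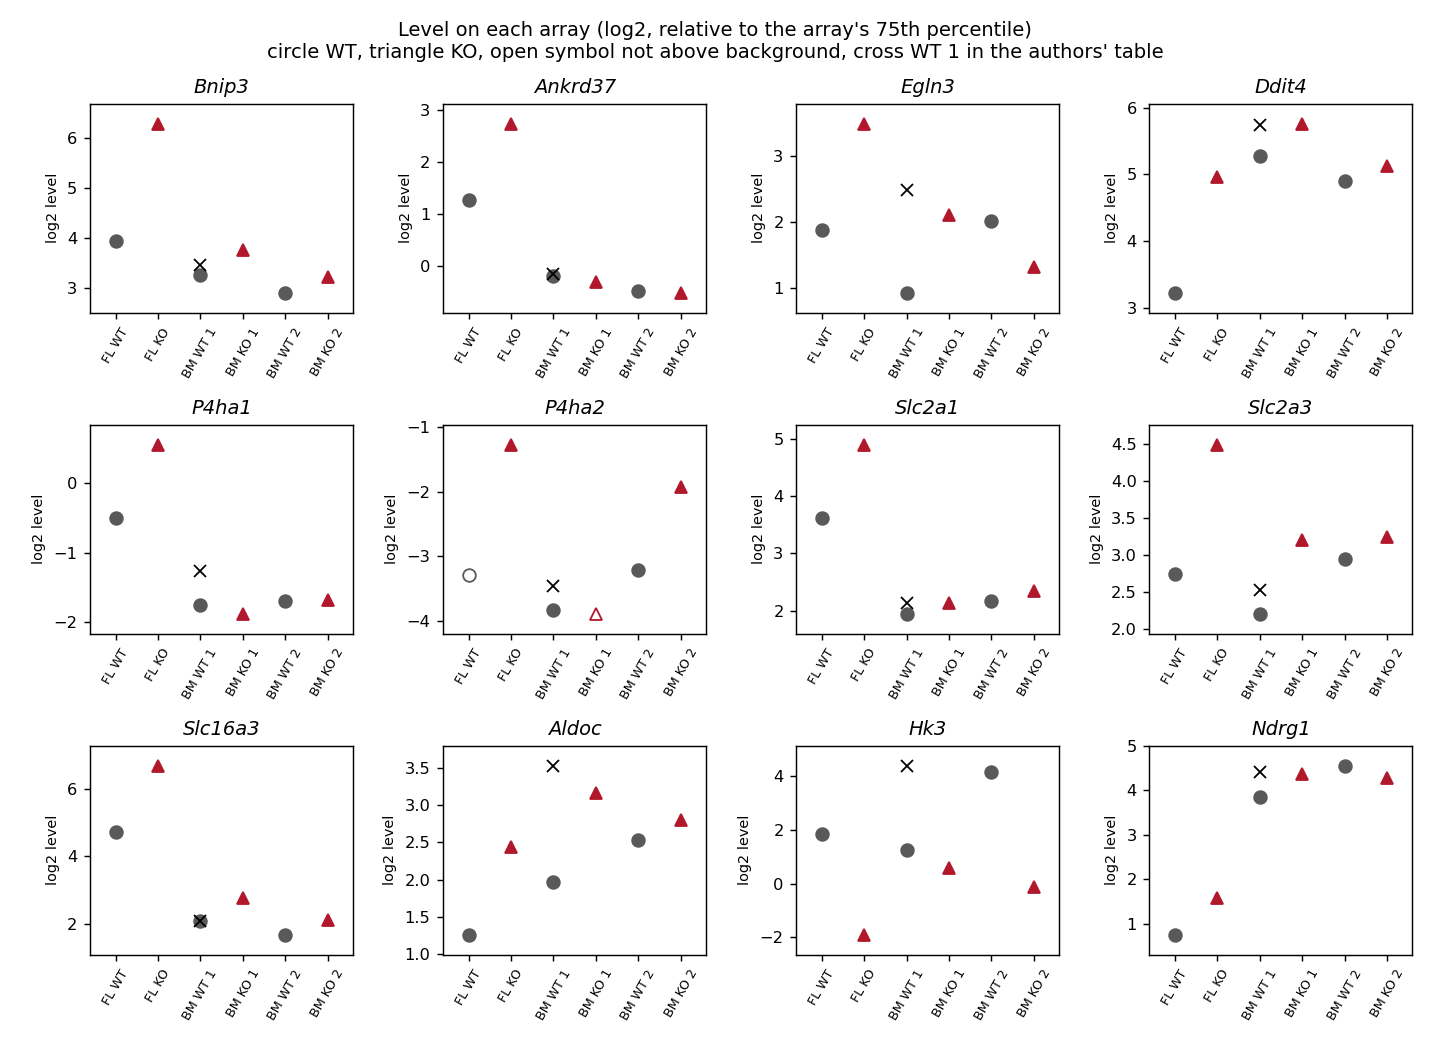
Level on each array (vertical axis, log2 relative to the array's 75th percentile, a separate scale per gene) for the 10 members at least 2-fold higher in fetal liver KO, and for Hk3 and Ndrg1; FL is fetal liver, BM bone marrow, circles are WT, triangles KO, open symbols not above background and crosses the authors' table for WT replicate 1. Bnip3, Ankrd37, Slc2a1 and Slc16a3 are highest on the fetal liver KO array and close together on the 4 bone marrow arrays.

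Genes around the pathway did not share this direction in fetal liver. The HIF subunits and their regulators were close to 0, with 7 of 11 higher and a median of 0.07. Hif1a, the oxygen-regulated subunit, stood at 0.58 and 0.65 on the WT and KO arrays, Epas1 (HIF-2a) at 3.97 and 3.94, and Vhl at 2.87 and 3.02. Of 16 genes of the TCA cycle, which oxidises the acetyl-CoA made from pyruvate, 1 was higher and the median was -0.28. A further list holds genes of pyruvate entry and oxidation and of lactate transport, with Pfkfb1, Pfkfb2 and Tigar, which set the activator of phosphofructokinase. Of its 11 measured genes, 3 were higher (median -0.26). In this list Slc16a1 (MCT1), a second lactate carrier, was 0.85 higher and Pdp1, the phosphatase that reactivates pyruvate dehydrogenase, 0.55 lower. Of 8 pentose phosphate genes, 4 were higher (median -0.03). Of 9 measured tissue-restricted paralogs and gluconeogenic genes, 6 were lower (median -0.20), while Fbp2, the muscle fructose bisphosphatase, was not well above background in WT and at least 13.7-fold higher in KO, and Ldhc, the testis lactate dehydrogenase, was 1.39 higher on the log2 scale. Other cell markers moved in the same pair. The B-lymphoid list was lower (median -3.01 over 9 measured genes, 1 higher, summed signal relative to the 75th percentile 45.7 in WT and 33.8 in KO), as was the hepatocyte list (median -1.65, 1 of 9 higher, sums 46.4 and 31.8), with Alb at -0.42 and -2.19, and the cycling list differed little (median -0.14). The summed signal of the erythroid list went from 108.8 to 216.8, with Hba-a1 at 6.09 and 7.53, while the list's median was -0.07 and 4 of 9 genes were higher. Their part in the differences of the hypoxia genes was not tested.

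**Figure D3:**
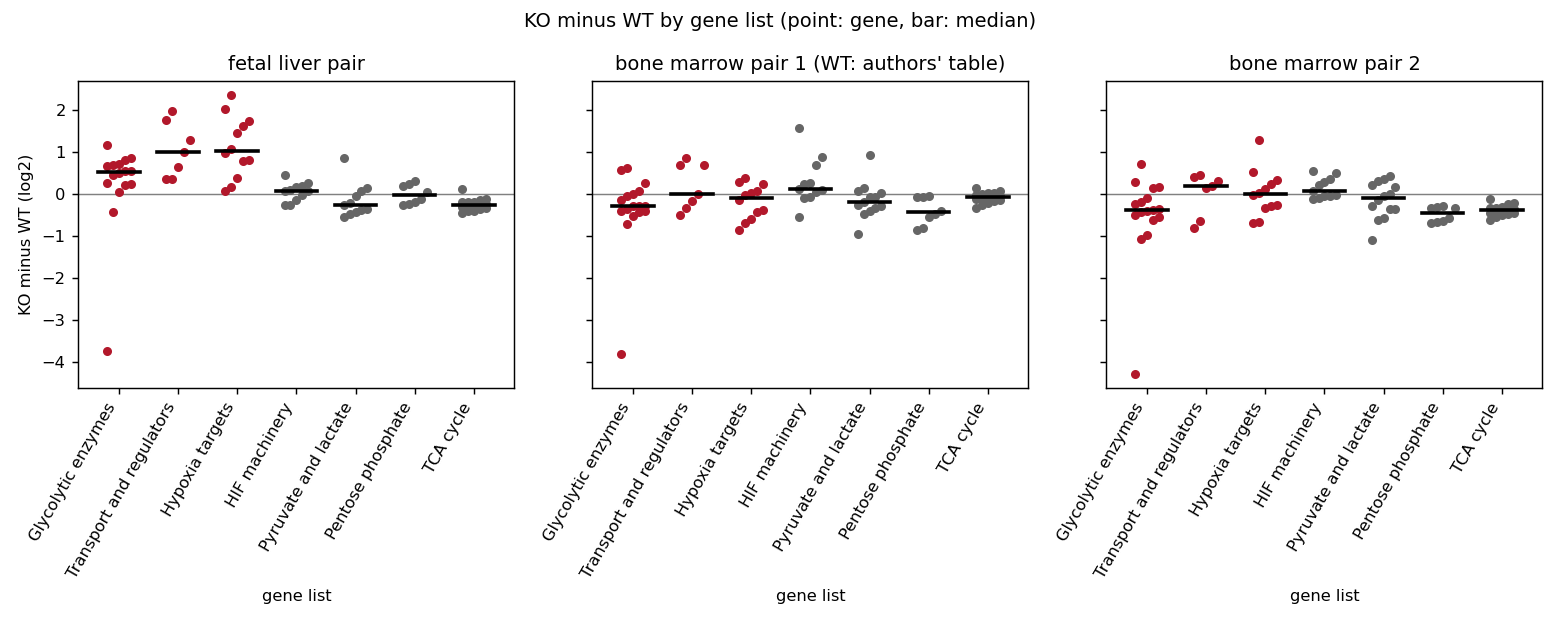
KO minus WT (log2, vertical axis) for every measured gene (points) of 7 gene lists (horizontal axis) in the fetal liver pair, bone marrow pair 1 with the authors' table for its WT array, and bone marrow pair 2; bars are medians. The member lists, in red, lie above 0 in fetal liver at medians of 0.52, 0.99 and 1.01, and around 0 or below it in bone marrow.

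In bone marrow the glycolytic and hypoxia genes had median differences near or below 0 in pair 2 and, with the authors' table, in pair 1, while the scanner file of WT replicate 1 gave upward medians in pair 1. Between KO and WT, limma (Benjamini-Hochberg adjustment over all genes tested) called Hk3 alone among 36 members with the authors' table, at a background of 0.876% of 12783 genes. No member passed with the scanner files, where none of 13011 genes passed (0%) and 548 had an unadjusted p under 0.05. The median differences of the enzymes were -0.30 in pair 1 and -0.39 in pair 2 with the table, and 13 of 17 enzymes were lower in each pair, where 51.3% and 41.2% of all genes were higher in pairs 1 and 2. With the scanner file of WT replicate 1 the pair 1 median was 0.52 and 16 of 17 enzymes were higher, beside 58.8% of all genes, so the direction in pair 1 rests on the source of that array. The medians over all genes were 0.01, -0.09 and, with the scanner file, 0.19. The hypoxia targets had medians of -0.10 and 0.00 in pairs 1 and 2, and the transporters and regulators -0.00 and 0.18. With the scanner file of WT replicate 1 the pair 1 medians were 0.25 and 0.68, and 6 of the 7 transporters and regulators were higher. Lower values in bone marrow KO were not particular to the enzymes. In the table fit 8 of 8 pentose phosphate genes (median -0.44) and 16 of 16 TCA cycle genes (median -0.24) were lower, while 7 of 11 HIF genes were higher (median 0.07). With the scanner files 6 of 8 pentose phosphate genes were lower and 11 of 16 TCA cycle genes higher.

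Of the genes that led in fetal liver, Slc2a1 and Ankrd37 were nearly level in bone marrow and Bnip3 was slightly higher in KO in both pairs. The others differed more between pairs or sources. Slc2a1 had levels of 2.12 and 2.12 in pair 1 (WT from the table, 1.95 in the scanner file) and 2.16 and 2.34 in pair 2. Ankrd37 stood at -0.15 and -0.30 in pair 1 (-0.19 in the scanner file) and -0.49 and -0.51 in pair 2. Bnip3 stood at 3.46 and 3.75 in pair 1 (3.26 in the scanner file) and 2.90 and 3.22 in pair 2. Within slide pairs Bnip3 was higher in KO by 0.28 in pair 1 (0.49 with the scanner file) and by 0.32 in pair 2. Across the pairs, WT and KO arrays overlapped for Bnip3, Ankrd37 and Slc2a1, and within each pair Slc2a1 differed by less than 0.2. Slc16a3 was higher on both KO arrays, at 2.76 and 2.11, than on the WT arrays of the same slides, at 2.07 (2.08 in the scanner file) and 1.67. Slc2a3 was likewise higher on both, at 3.20 and 3.24 against 2.52 (2.21) and 2.94, a difference of 0.49 with an SE of 0.27 (limma adjusted p = 0.661, table). Egln3 stood at 2.49 and 2.11 in pair 1 (0.93 in the scanner file) and 2.02 and 1.32 in pair 2. Ddit4 stood at 5.73 and 5.76 in pair 1 (5.28) and 4.91 and 5.13 in pair 2. P4ha1 lay between -1.87 and -1.26 on the bone marrow arrays of either source, and P4ha2 stood at -3.46 and -3.89 in pair 1 (WT -3.84 in the scanner file), with the KO array not above background, and at -3.21 and -1.92 in pair 2, a difference of 1.28. Aldoc stood at 3.53 and 3.17 in pair 1 (1.97) and 2.53 and 2.80 in pair 2. None of these differences passed the test.

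Hk3 fell in bone marrow with the authors' table and was lower in the fetal liver pair as well. Its bone marrow levels were 4.38 in WT and 0.57 in KO in pair 1 (WT 1.27 in the scanner file), and 4.15 and -0.14 in pair 2. The KO arrays lay below the WT arrays in each of the 3 pairs, also with the scanner file. With the table the bone marrow difference was -4.05 with an SE of 0.33 (16.5-fold, limma adjusted p = 0.019), and with the scanner files -2.49 with an SE of 1.01. The table call was lost with no filter (limma adjusted p = 0.104). Leaving out any 1 bone marrow array leaves 1 WT or 1 KO array, so no call is given for those fits. Hk3 is known as a gene of granulocytes and monocytes, and markers of these cells moved with it in bone marrow. In the table fit all 12 neutrophil genes were lower (median -3.15, 4 passing), with summed signals of 2455 and 1318 on the WT arrays and 536 and 170 on the KO arrays, and 7 of 10 monocyte and macrophage genes were lower (median -2.73, 4 passing; sums 251 and 116 against 29.2 and 13). In fetal liver the neutrophil list was level, with 7 of 12 genes higher, a median of 0.09 and sums of 4095 and 3760, while Hk3 was 13.4-fold lower there; the monocyte list had a median of -0.49 (3 of 10 higher; sums 150.8 and 127.1). The neutrophil markers Mpo and S100a9 stood at 10.8 and 10.9, and 9.47 and 9.02, on the fetal liver WT and KO arrays, and at 9.21 and 4.0, and 4.27 and 1.29, in bone marrow pair 2. The part of these cells in the fall of Hk3 was not tested.

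The knockout effect over both tissues and its difference between tissues were tested on all 6 arrays. With tissue as a term, the table called Hk3 alone of 36 members (-3.95, SE 0.25, limma adjusted p = 0.018, 0.0059 to 0.132 over its alternatives), where 0.17% of 13499 genes were called. The call was lost when any 1 of the 4 bone marrow arrays was left out and in the fit with the replicate block (adjusted p = 0.063). The scanner files called no member and no gene, with 466 genes at an unadjusted p under 0.05. The difference between the tissues in the knockout effect was called for no member and no gene (0%) in either source, with 950 genes at an unadjusted p under 0.05 in the table and 351 in the scanner files. The largest member differences in the table were Egln3 (-2.15, SE 0.65, limma adjusted p = 0.479) and Bnip3 (-2.05, SE 0.59, limma adjusted p = 0.456), bone marrow less than fetal liver. The fit takes the lone fetal liver arrays to vary like the bone marrow arrays, so the contrast between the tissues in the plot of KO minus WT remains a description.

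Between the tissues, Slc16a3 was lower and Ndrg1 higher in bone marrow than in fetal liver KSL cells in both sources, and with the authors' table Slc2a1, Pfkfb4, Ankrd37, P4ha1 and 6 of 17 enzymes were lower and Hk3 higher. In direction alone, 11 of 17 enzymes were lower in the table, where 8538 of 13499 genes were lower. Of the 17 enzymes, 0 were called lower with the scanner files and 1 with the table under quantile normalization. With the table, 13 of 36 members passed (limma, adjusted p below 0.05), 11 lower and 2 higher. Of 13499 genes, 14% were called lower and 8.92% higher. That fit takes arrays of the same slide as independent. With slide as a random block 4 members passed, and 825 of all genes in place of 3089. With the scanner files 2 members passed, Slc16a3 and Ndrg1, where 2.1% of 13662 genes were called. Each of these 2 scanner calls was kept under 7 of 12 alternatives and lost under 5. Their table calls were kept under all 11 alternatives. Slide as a random block gave 3 members and 335 genes with the scanner files, in place of 2 and 287. The 4 bone marrow arrays lay wholly below the 2 fetal liver arrays for 19 of 36 members, where this held for 33.7% (scanner files) and 36.8% (table) of all genes. The median over all genes was itself -0.26 in the table and -0.30 in the scanner files and moved to -0.04 and -0.06 under quantile normalization. That scaling also turned the split of the table's calls, from 1885 genes lower and 1204 higher to 1346 lower and 1578 higher, and left 6 members lower and 4 higher. Relative to it, the enzymes had a median of -0.70 (table) and -0.80 (scanner files), and -0.30 and -0.39 under quantile normalization.

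**Figure D4:**
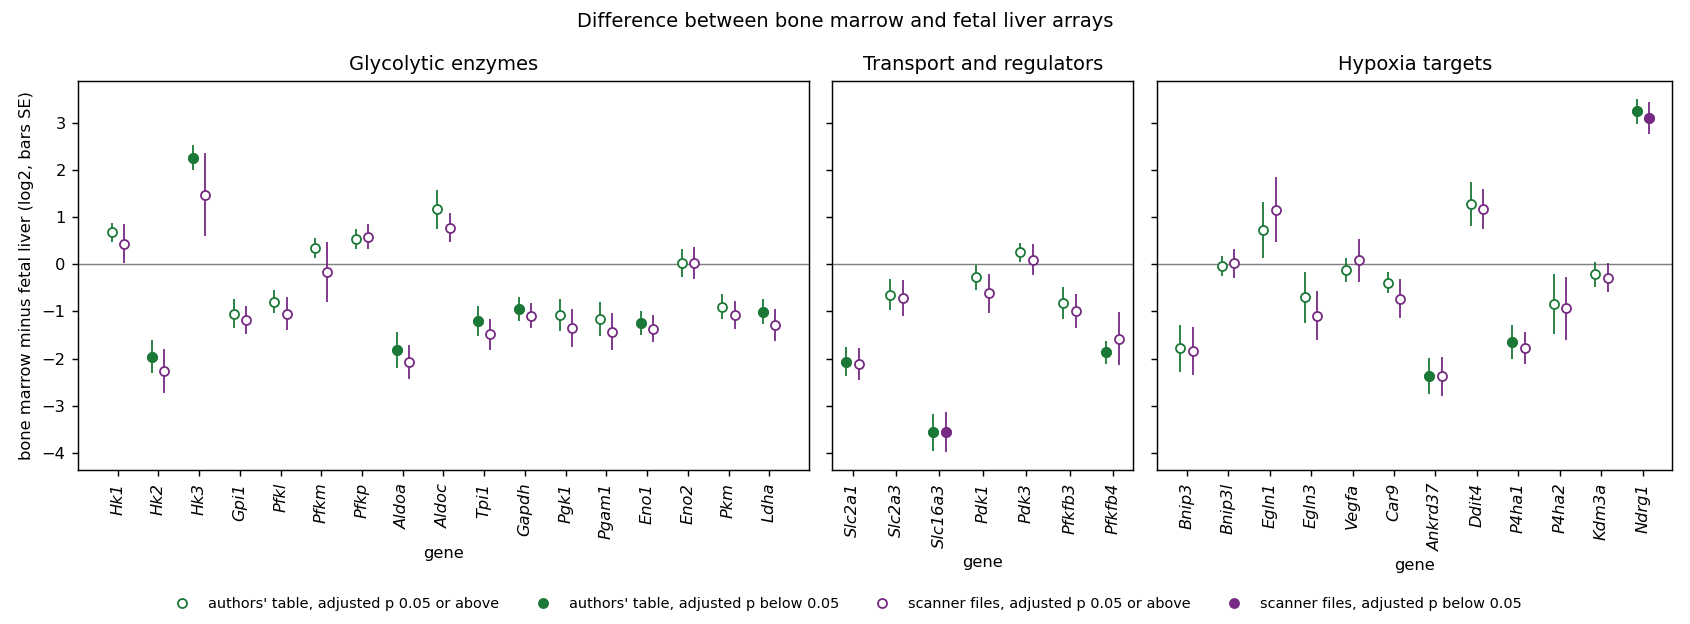
Bone marrow minus fetal liver (log2, vertical axis, bars are the SE of the limma coefficient) for 36 members (horizontal axis), from the authors' table (green) and the scanner files (purple); filled points have an adjusted p below 0.05. Ndrg1 stands highest and Slc16a3 lowest, and both are filled in either source.

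Slc16a3 showed the largest drop, from 4.73 and 6.69 on the fetal liver WT and KO arrays to between 1.67 and 2.76 in bone marrow (table -3.56, SE 0.39, limma adjusted p = 0.0061; scanner files adjusted p = 0.032). Its arrays did not overlap between tissues. Slc2a1, at 3.61 and 4.90 in fetal liver, lay between 1.95 and 2.34 in bone marrow (-2.06, SE 0.31, limma adjusted p = 0.013). Pfkfb4, at 2.31 and 2.66, lay between 0.33 and 0.93 in bone marrow with the table, while the scanner file of WT replicate 1 read 2.08. Hk2, the hexokinase that HIF and insulin induce, went from 3.22 and 3.90 to between 0.67 and 2.02. Ankrd37 went from 1.27 and 2.73 to between -0.51 and -0.15, and P4ha1 from -0.51 and 0.55 to between -1.87 and -1.26. For each of these genes the tissues did not overlap in either source, where 33.7% (scanner files) and 36.8% (table) of all genes lay wholly lower in bone marrow.

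Among the enzymes of the lower part of the pathway and the aldolase step, Aldoa stood at 9.30 and 10.1 in fetal liver and at 7.88, 7.91, 7.35 and 8.41 in bone marrow (KO 1, WT 2, KO 2 and WT 1 from the table; -1.81, SE 0.38). Eno1 stood at 7.71 and 8.21 against 6.43 to 6.99, Tpi1 at 7.38 and 7.93 against 5.69 to 6.86, Ldha at 9.77 and 9.98 against 8.01 to 9.14, and Gapdh at 9.98 and 10.2 against 8.77 to 9.49. No bone marrow array reached a fetal liver array for any of these 5 enzymes, which are named because the table called them lower. The same held for 33.7% (scanner files) and 36.8% (table) of all genes. It held for 11 of 17 enzymes in either source, and for 7 of 17 under quantile normalization. The Ldha values are from the brightest of 3 probes (-1.01 in the table), the others giving -0.37 and -0.01, and the 7 Gapdh probes gave -1.01 to -0.28. The calls of these enzymes were not stable: Gapdh, Ldha and Tpi1 each kept theirs under 1 of 11 alternatives, Eno1 and P4ha1 under 4 and Aldoa under 6. Under quantile normalization the Gapdh difference was -0.20 in place of -0.95, and that of Ldha -0.27 in place of -1.01. Ndrg1, a stress-induced gene of the hypoxia response, ran the other way, at 0.75 and 1.57 in fetal liver and between 3.84 and 4.55 in bone marrow (3.24 in the table, SE 0.27, limma adjusted p = 0.0034; scanner files 3.10, SE 0.33, adjusted p = 0.028). Hk3 was higher in bone marrow by 2.26 in the table (SE 0.26, limma adjusted p = 0.0069), although the arrays of the tissues overlapped.

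Of the genes around the pathway, Ldhc and Hif3a differed most between the tissues. Ldhc stood at 2.00 and 3.39 in fetal liver and between -5.34 and -1.42 in bone marrow (table -5.71, SE 0.54). Hif3a, a HIF subunit that can act as an inhibitor, stood at 3.01 and 3.46 against -3.14 to -1.01 (table -4.93, SE 0.59, limma adjusted p = 0.0072). Hif1a did not pass (-0.12, SE 0.17) and Epas1 was lower (-0.78, SE 0.20, limma adjusted p = 0.040). In the table fit, 4 of 8 pentose phosphate genes (G6pdx, Pgd, Rpia and H6pd) and 1 of 16 TCA cycle genes (Cs) were called lower, and none of either list higher. Of 13 genes of the pyruvate and lactate list, only Tigar, which lowers the activator of phosphofructokinase, and Pfkfb1 were called lower. Both act on that activator, and no gene of pyruvate entry, pyruvate oxidation or lactate transport in the list was called. In the KO against WT fit of bone marrow, Fbp2 was the one gene of these 5 lists to pass (limma adjusted p = 0.016), from below background on both WT arrays to -2.91 and -2.80 on the KO arrays (at least 3.57-fold with the scanner files). The tissue differences stood beside marker differences that went with them: 7 of 9 hepatocyte genes were called lower in bone marrow (median -3.22), 5 of 12 KSL genes and 5 of 10 megakaryocyte genes higher (medians 0.82 and 2.09) in the table fit. There 4 of 12 neutrophil genes were called lower (median -1.87) and none higher, while 3 were called lower and 1 higher of both the 9 erythroid genes (median -1.67) and the 10 monocyte and macrophage genes (median -1.16). With the scanner files 3 hepatocyte genes and 1 neutrophil gene were called lower, and none of the KSL or megakaryocyte genes passed. Ly6a, the gene for Sca-1, stood at 0.31 and 0.77 in fetal liver and 3.36 to 6.04 in bone marrow. Their part in the differences of the glycolytic genes was not tested.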

How the data were processed

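Scanner files held the intensity of 62976 spots per array, and the submitters' processing notes name Agilent Feature Extraction, version 10.7.1.1, as the software; gProcessedSignal is the background-corrected intensity, per the file headers. The authors' deposited table held a linear ratio per probe, equal to the scanner signal over a constant for 5 arrays; how its sixth column was made is not given in the sources used here. Control and outlier-flagged spots were left out, spots of a probe averaged, log2 taken and each array's 75th percentile subtracted. RefSeq accessions named 26762 of 55681 probes, and the brightest probe stood for a gene. Genes above background on all arrays of at least 1 group were tested with limma 3.58.1 (R 4.3.3), a call being a Benjamini-Hochberg adjusted p below 0.05 over all genes; where flags do not apply to the table's sixth column, a level of -3.7 replaced them, which matched 99.1% of the flags on its slide partner. At-least folds took the dimmer group at the lowest signal well above background. The models were tested on simulated data. The members and lists were chosen with earlier results of these data known. One gene of the pathway lists is not reported here. Values per array are given for members that pass a test or are at least 2-fold apart in fetal liver. Normexp used the median signal. For bone marrow the replicate number is also the slide; deviations of the 2 pairs correlated at 0.56 (table) and 0.046 (scanner files) over genes. Alternatives were normexp (offset 50), quantile normalization, filters, probe means, blocks and leaving out each array. Precision is limited by the number of arrays.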

Additional observations from a re-analysis of the deposited data

Results flagged for a closer look

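The median KO minus WT of the glycolytic enzymes had opposite signs in the tissues. With the authors' table it was 0.52 in fetal liver and -0.30 and -0.39 in the bone marrow pairs, so that fetal liver lay 0.87 (log2) above the mean of the bone marrow pairs. This difference of medians was not tested, fetal liver has 1 array per genotype, and with the scanner file of bone marrow WT replicate 1 the median of pair 1 was 0.52, the same sign as in fetal liver. With the table, the medians of the pentose phosphate and TCA cycle lists were also below 0 in both bone marrow pairs.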

How the results depend on the processing

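Counts of members called moved with the arrays used. With 1 array left out, the scanner files called 0 to 4 members for bone marrow KO against WT, 0 to 9 for bone marrow against fetal liver and 0 to 1 for the difference between tissues, and the table called 0 to 1 for genotype over both tissues and 3 to 12 for bone marrow against fetal liver. Without bone marrow WT replicate 1, the scanner files called 9 of 36 members between the tissues, where 1817 of 13662 genes were called. For bone marrow KO against WT, fits without 1 bone marrow array leave 1 WT or 1 KO array. Their counts are not read as results about the members. The scanner count between tissues was 5 of 33 members with a filter on all arrays, where 227 of 11127 genes were called. With the table, no filter left 0 members for bone marrow KO against WT, and slide as a random block left 4 between tissues (825 of all genes in place of 3089). The replicate block left 0 members for genotype over both tissues, where the table had called 1, and kept 1 for bone marrow KO against WT, where it called 981 genes in place of 112. In fetal liver the enzyme median was 0.45 with normexp and 0.60 with quantile normalization, and that of the hypoxia targets 0.78 with normexp and 0.93 with a filter on both arrays; the count of members at least 2-fold apart ran from 9 to 11, and that of all genes was 426 with normexp and 574 with a filter on both arrays in place of 1238. For the difference between tissues, quantile normalization of the table called 89 genes in place of 0, with 0 members among them. Of 17 calls of single genes over 188 alternatives, 116 were kept, 72 lost and 0 reversed. These alternatives include fits that leave 1 array in a group. The cause was not tested where a call was lost. Low signals near background (P4ha2, Egln1, Eno2) limit the folds that can be given.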
